A study of Homo sapiens with 7 samples.

Results

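Receptor tyrosine kinases are cell-surface proteins that bind a growth factor outside the cell and switch on an enzyme inside it. Here 10 of them were followed at the transcript level in BHT-101, a human anaplastic thyroid cancer line, and in derivatives with stop codons in ASH1L, a histone methyltransferase. The receptors were chosen by name, for their relevance to kinase inhibitors in thyroid cancer: PDGFRA, EGFR, ERBB2, ERBB3, MET, FGFR1, FGFR2, FGFR3, EPHA2 and RET. Of these 10, 8 had a row among the 13142 genes of the table and FGFR2 and RET, which had none, were not analysed here. All 8 were among the 11154 genes that passed a filter on low values (log2 RPKM above 0 in at least 3 of the 7 libraries).

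Wild-type (WT) cells, with ASH1L intact, gave 3 biological replicates, and 4 ASH1L knockout (KO) clones gave 1 library each. All cells grew in the same serum-containing medium, and no drug or added growth factor is given. Both alleles of KO1 stop after residue 413, those of KO2 after residue 610 and those of KO3 after residue 2129, and KO4 carries stops after residues 2169 and 2174. Each clone is a cell line of its own, and no clone with intact ASH1L was analysed here, so an effect of ASH1L and a property of a clone cannot be told apart. ASH1L itself stood at a log2 RPKM of 3.34, 3.30 and 3.22 in WT1 to WT3 and at 2.69, 2.54, 2.42 and 3.74 in KO1 to KO4; since the labels give stop codons and no deletion, its transcript level does not check the labels.

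Ligand binding brings receptor chains together, so that they phosphorylate each other and recruit adaptors that feed the RAS-MAPK and PI3K pathways. EGFR, ERBB2 and ERBB3 belong to a family that works in mixed pairs, PDGFRA answers to platelet-derived growth factors, MET to hepatocyte growth factor, the FGFRs to fibroblast growth factors, and EPHA2 to ephrins on neighbouring cells. Multikinase inhibitors given in thyroid cancer, such as lenvatinib, act on PDGFRA, the FGFRs and RET besides the receptors of vascular growth factors.

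Levels are given as deposited, in log2 RPKM, where RPKM is reads scaled to gene length and library size, so that genes can be compared within a library. Effective library sizes, worked out from the values themselves, were 44.0 to 70.4 M reads. WT samples correlated with each other at 0.988 to 0.995 over tested genes, KO1 with them at 0.821 to 0.830 and the other clones at 0.913 to 0.940; these are descriptions across genes. The median SD of a gene was 0.101 log2 units over the WT samples and 0.3 over the clones, and 90.4% of tested genes varied more among the clones. Of 8 markers of epithelial carcinoma cells 7 had a row, and none passed the test of KO against WT given below. In tests of single clones CDH1 and KRT18 passed in all 4, as 6.13% of all tested genes did, and the others in 2 or 3. The summed RPKM of the 7 was 597 to 717 in WT and 373, 703, 313 and 499 in KO1 to KO4. Of 10 thyroid follicular markers only PAX8 and HHEX had a row, with a summed RPKM of 1.93 to 2.48 in WT and 1.47 to 6.09 in the clones. Endothelial markers (1 of 7 with a row) summed to at most 0.72, fibroblast markers (3 of 11) to 41.8 to 46.3 in WT and 21.0 to 65.8 in the clones, and leukocyte markers (CD3D and CD14, 2 of 9) to 9.09 to 11.9 in WT and 0.479 to 2.99 in the clones.

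In WT cells MET was the most abundant of the 8 receptors, followed by EPHA2, EGFR, PDGFRA, ERBB3, FGFR1, FGFR3 and ERBB2. The ranges of neighbours in this order overlapped only for FGFR1 and FGFR3. MET alone made up 54.4% to 58.0% of the summed RPKM of the receptors in WT samples. That order changed from clone to clone: EPHA2 led in KO1 with 44.3% of the sum against 33.6% for MET, ERBB3 and FGFR3 came right after EGFR in KO2, and PDGFRA was last in KO1 and KO4. The summed RPKM was 219 to 228 in WT samples and 162, 283, 188 and 159 in KO1 to KO4.

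**Figure D1:**
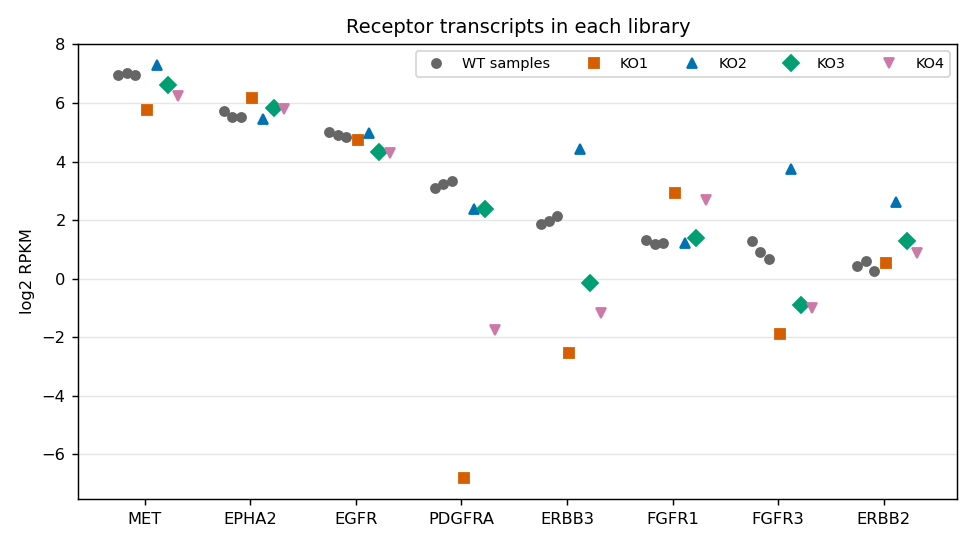
Level of each receptor in each library in log2 RPKM (vertical axis), with receptors ordered by their WT mean; circles are the 3 WT samples and the other symbols the clones, 1 library each. PDGFRA lies below every WT sample in all 4 clones, and ERBB3, FGFR3 and ERBB2 have their highest level in KO2.

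With the 4 clones read as a group, no receptor was called higher or lower than in WT. Of the 8 receptors, 0 passed the test of KO against WT (limma, adjusted p under 0.05 over all 11154 genes), and 0 had an unadjusted p under 0.05. Over all genes 46 passed, 0.412%, and 1753 had an unadjusted p under 0.05. The median difference over the receptors was -0.42 log2 units against -0.02 over all tested genes. The clones lay far apart from each other in several receptors. The SD over the 4 clones was 4.37 for PDGFRA, 3.02 for ERBB3 and 2.55 for FGFR3, against 0.12, 0.13 and 0.31 over the WT samples. EPHA2 and EGFR were the steadiest, with an SD over the clones of 0.29 and 0.34.

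Each clone was therefore also set against WT on its own. This test takes its spread from the WT samples, which varied less than the clones, so its p-values are too small for a statement on ASH1L and say only that a library differs from WT. Of the 8 receptors, 6 passed in KO1 (2 higher and 4 lower), where 44.1% of all tested genes passed, 19.2% higher and 24.9% lower. In KO2 it was 5 (4 higher, 1 lower), beside 33.5% of genes, 15.5% higher and 18.0% lower. KO3 had 6 (1 higher, 5 lower), beside 34.1%, with 14.2% higher and 19.9% lower. KO4 had 6 (1 higher, 5 lower), beside 24.8%, with 10.4% higher and 14.4% lower. PDGFRA, ERBB3, MET and FGFR3 passed in each of the 4 clones, as 6.13% of all tested genes did.

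**Figure D2:**
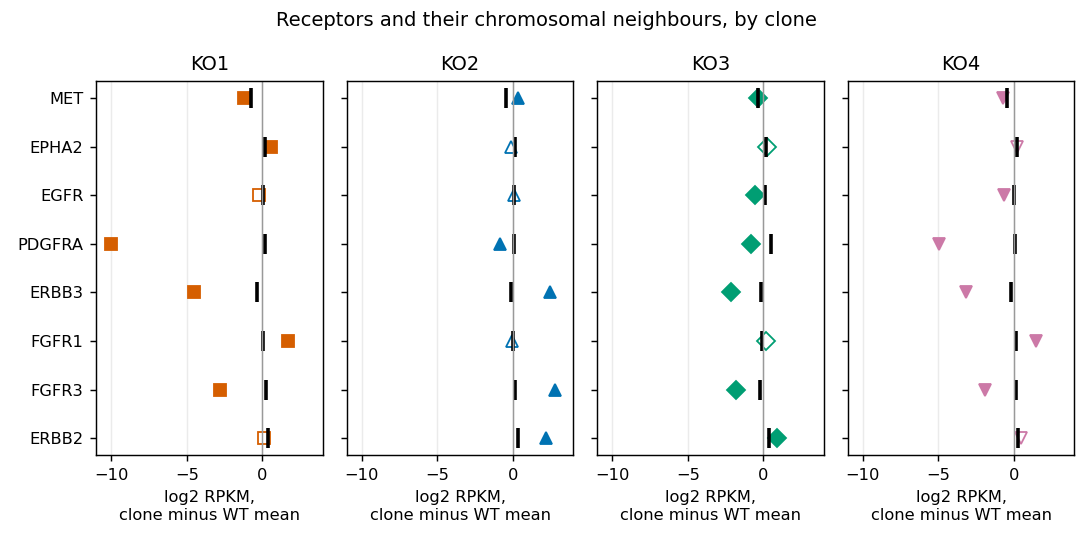
Difference of each clone from the WT mean in log2 RPKM (horizontal axis) for the 8 receptors, 1 panel per clone; filled symbols passed the test of that clone against WT, open ones did not, and the black tick is the median difference of the tested genes within 5 Mb of the receptor. The symbols of PDGFRA, ERBB3 and FGFR3 lie far from their ticks in KO1 and KO4, while MET in KO3 sits on its tick.

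PDGFRA, the receptor for platelet-derived growth factors typical of mesenchymal cells, was the only receptor that lay below every WT sample in all 4 clones, a position that 10.1% of tested genes shared. In 0 of the 8 did every clone lie above every WT sample, beside 8.88% of genes. The gene (ENSG00000134853) spans chr4:54229097-54298247 on the forward strand of hg38. Its log2 RPKM was 3.09, 3.22 and 3.33 in WT1 to WT3 and -6.82, 2.37, 2.37 and -1.75 in KO1 to KO4. On the linear scale that is 8.5, 9.34 and 10.1 RPKM in WT against 0.00883, 5.18, 5.18 and 0.298 RPKM. The clones thus fell into KO2 and KO3, with a level somewhat below WT, and KO4 and KO1, in which the transcript was low or close to absent. In such bulk RNA, fewer cells with the transcript and less of it per cell cannot be told apart.

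In reads, PDGFRA had an estimated 4665, 5733 and 5846 in WT, 3184 in KO2, 2219 in KO3, 204 in KO4 and 4 in KO1. The 4 reads of KO1 have an exact 95% Poisson interval of 1.09 to 10.2 reads, or 0.00228 to 0.0215 RPKM, which covers counting error only. KO4 was 31.1 times lower than WT (log2 difference -4.96, adjusted p 3.11e-05), and KO1 differed by -10.04 log2 units (adjusted p 3.15e-07), a size that depends on the value the authors gave to few reads. KO2 and KO3 were each 1.79 times lower, with adjusted p of 0.0115 and 0.0112; without WT2 these rise to 0.0683 and 0.0697. Over the 4 clones together the difference was -4.17 ± 2.11 log2 units (SE, adjusted p 0.379), and it was -2.21 without KO1 and -5.28 without KO2. On a log2(RPKM + 1) scale, which damps low levels, the group difference was -1.95 for PDGFRA, -0.77 for ERBB3 and -0.20 for FGFR3.

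Genes around PDGFRA were at or above their WT level in the median. The median difference from WT of the 24 tested genes within 5 Mb was 0.18, 0.08, 0.49 and 0.08 in KO1 to KO4. Another gene model on the same strand, AC058822.1, shares 15.8% of the exon bases of PDGFRA, and how reads in the shared bases were counted is not stated by the sources. In the 250 bases before its RefSeq start (chr4:54229043-54229292, GRCh38.p14) a GC content of 46.8% and 8 CpG pairs were counted. RefSeq listed 2 starts for PDGFRA, and the window of the start used runs into the gene span given above.

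The profiles most like that of PDGFRA were sought among the 656 tested genes with an SD of at least 1 over the 7 libraries. Pearson's r over the 7 libraries was 0.996 for ELF3-AS1, an antisense RNA of ELF3, and for THRB, a thyroid hormone receptor. PKIB, an inhibitor of protein kinase A, followed at 0.995, the calpain protease CAPN5 at 0.994 and the synaptotagmin SYT9 at 0.993. These are descriptions over libraries in which KO1 and KO4 make up most of the range. THRB stood at a log2 RPKM of 1.89, 1.88 and 1.86 in WT, 1.78 in KO2, 1.43 in KO3, -0.30 in KO4 and -2.06 in KO1. SYT9 was the most extreme, with 0.32 to 0.85 in WT, -5.51 in KO4 and -10.10 in KO1, where it had 0 reads. SYT9 was above 0 in the WT samples alone and passed the filter on low values only through them. Its lower direction in the clones follows from that. All of the 5 were lowest in KO1 and next lowest in KO4, an order that follows from picking them by their likeness to PDGFRA. Strand is not given for the counting, so reads of ELF3-AS1 and ELF3 cannot be told apart.

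**Figure D3:**
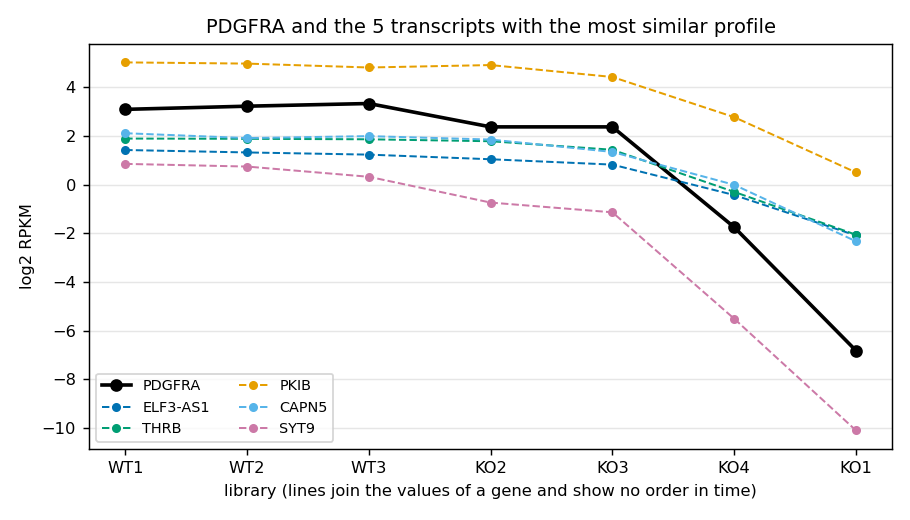
Level of PDGFRA (thick line) and of the 5 genes with the highest Pearson's r to it in log2 RPKM (vertical axis), over the 7 libraries (horizontal axis, with KO1 placed last); lines join the values of a gene. Every gene is lowest in KO1 and next lowest in KO4, as follows from the choice by likeness. PKIB in KO2, at 4.91, lies within its WT range of 4.81 to 5.02.

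No PDGF ligand passed as a group difference. Of 4 fixed ligands 3 were tested and 0 passed in KO against WT; the median difference was 0.28. PDGFA, which activates PDGFRA, stood at 1.30, 1.54 and 1.26 in WT and at 2.57, 0.69, 1.57 and 2.75 in KO1 to KO4. It was higher in KO1 (adjusted p 0.0015) and KO4 (adjusted p 0.00189), the clones with the least PDGFRA, and lower in KO2 (adjusted p 0.0193). PDGFB stood at 0.36 to 0.52 in WT and 0.87, -1.78, -0.96 and 1.41 in KO1 to KO4. It was lower in KO2 (adjusted p 0.00069) and KO3 (adjusted p 0.00257) and higher in KO4 (adjusted p 0.011). PDGFC was at 2.88 to 3.03 in WT and 3.37, 2.78, 3.71 and 3.08 in KO1 to KO4, higher in KO1 (adjusted p 0.0252) and KO3 (adjusted p 0.00435).

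No ERBB receptor passed in KO against WT. EGFR, which binds EGF-like ligands, lies at chr7:55019021-55211628 and was at 5.0, 4.92 and 4.84 in WT and at 4.72, 4.99, 4.33 and 4.28 in KO1 to KO4. KO2 lay within the WT range and the other clones below it. The levels in KO3 and KO4 were 1.51 and 1.55 times lower than in WT (adjusted p 0.00773 and 0.00748), while the whole group differed by -0.34 ± 0.19 (SE, adjusted p 0.413). Neighbouring genes differed by 0.08 in KO3 and -0.01 in KO4 in the median.

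ERBB2, the family member without a known ligand, lies at chr17:39687914-39730426. It was the least abundant of the 8 receptors in WT, at 0.44, 0.59 and 0.26, and stood at 0.52, 2.62, 1.30 and 0.87 in KO1 to KO4. KO2 was 4.56 times higher than WT (adjusted p 0.000686) and KO3 1.83 times higher (adjusted p 0.0126). The 119 neighbours differed from WT by 0.28 to 0.38 in every clone; with them subtracted, KO3 differed by 0.51 with adjusted p 0.0983. As a group the clones differed by 0.90 ± 0.47 (SE, adjusted p 0.394), and by 0.47 without KO2.

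ERBB3, which binds neuregulins and signals through its partners because its own kinase is weak, changed in both directions. The gene lies at chr12:56076799-56103505 and stood at 1.88, 1.96 and 2.14 in WT and -2.54, 4.43, -0.16 and -1.17 in KO1 to KO4. Estimated reads were 1875 to 2375 in WT and 76, 12308, 357 and 283 in KO1 to KO4. Against WT it was 23.1 times lower in KO1, 5.41 times higher in KO2, 4.43 times lower in KO3 and 8.94 times lower in KO4, with adjusted p of 4.81e-06, 0.000431, 0.000382 and 0.000119. The difference over all clones was -1.85 ± 1.46 (SE, adjusted p 0.564), without KO2 it was -3.28 with adjusted p 0.0466, and without KO1 -0.96 with adjusted p 0.773.

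Among the ERBB ligands 6 of 11 were tested and 0 passed in KO against WT; the median difference was -0.68, beside -0.02 over all tested genes. AREG (amphiregulin), an EGFR ligand, was among the abundant transcripts at 7.05, 7.27 and 7.10 in WT, and stood at 3.82, 6.41, 6.02 and 6.25 in KO1 to KO4. It lay below every WT sample in all clones and was lower in each single test (adjusted p 4.04e-06, 0.00579, 0.00115 and 0.00313), with a group difference of -1.51 ± 0.59 (SE, adjusted p 0.281), which was -0.91 without KO1 (adjusted p 0.0566). HBEGF, which binds EGFR, had 2.07 to 2.55 in WT and 1.18, 0.67, 2.14 and 1.51 in KO1 to KO4, and was lower in KO1, KO2 and KO4. NRG1, a ligand of ERBB3, stood at 1.93 to 2.25 in WT and -0.65, -0.39, 2.30 and 0.61 in KO1 to KO4. NRG1 was called lower in KO1 (adjusted p 5e-05), KO2 (adjusted p 0.000431) and KO4 (adjusted p 0.00194). TGFA, which binds EGFR and was picked after its values were seen, was higher in KO1, KO3 and KO4, at 4.91, 4.10 and 4.21 against 3.13 to 3.32 in WT. EREG, a further ERBB ligand picked after its values were seen, was at 6.76 to 7.02 in WT. In KO1 to KO4 EREG was at 5.69, 6.66, 6.50 and 6.74, below every WT sample, and was called lower in KO1 only (adjusted p 0.000581).

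**Figure D4:**
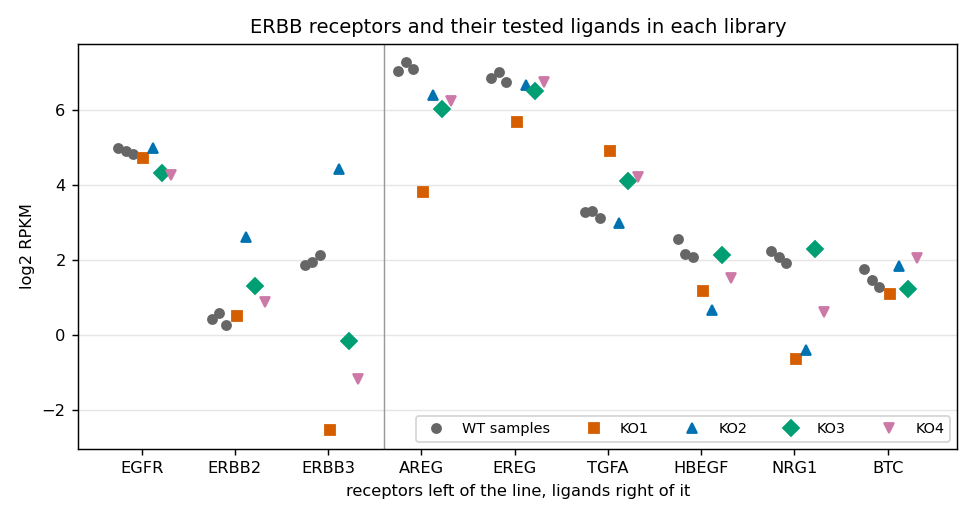
Level in log2 RPKM (vertical axis) of the 3 ERBB receptors with a row (left of the line) and their 6 tested ligands (right of it) in each library; circles are WT samples and the other symbols clones. AREG and EREG lie below the WT samples in every clone and lowest in KO1, at 3.82 and 5.69, and ERBB2 and ERBB3 are highest in KO2.

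MET, the receptor of hepatocyte growth factor, lies at chr7:116672390-116798386 and was the most abundant receptor in every library but KO1. It stood at 6.96, 7.03 and 6.96 in WT and at 5.77, 7.31, 6.63 and 6.23 in KO1 to KO4. KO2 lay above the WT samples and the other clones below them. MET was 2.31 times lower in KO1 (adjusted p 0.000147), 1.27 times lower in KO3 (adjusted p 0.0306), 1.69 times lower in KO4 (adjusted p 0.00258) and 1.25 times higher in KO2 (adjusted p 0.0376). For all clones together the difference was -0.50 ± 0.32 (SE, adjusted p 0.484), -0.26 without KO1 and -0.77 without KO2.

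The 17 tested genes within 5 Mb of MET were also lower in every clone, by a median of -0.75, -0.45, -0.34 and -0.45 in KO1 to KO4. Relative to them MET differed by -0.46 in KO1, 0.78 in KO2 (adjusted p 0.00209), -0.01 in KO3 (adjusted p 0.938) and -0.31 in KO4. The call in KO3 was lost and the group difference was 3.1e-05. With no neighbours subtracted, the call in KO2 was lost without WT1 (adjusted p 0.080), without WT2 (adjusted p 0.125) and without the variance trend (adjusted p 0.0681). That in KO3 was lost without WT2 (adjusted p 0.149), under quantile normalization (adjusted p 0.139) and without the trend (adjusted p 0.057).

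HGF itself was not analysed here. Of 9 genes for HGF and its activation 5 were tested and 0 passed in KO against WT; the median difference was -0.39. SPINT1, an inhibitor of the proteases that activate HGF, was at 1.34, 1.51 and 1.67 in WT and -2.67, 3.81, 0.88 and 0.62 in KO1 to KO4, and passed in each clone. ST14, the protease matriptase, stood at 0.42 to 0.87 in WT and -0.80, 1.63, 0.58 and -0.93 in KO1 to KO4. SPINT2, a related inhibitor, was at 5.22 to 5.36 in WT and at 4.60 in KO1, where it was lower (adjusted p 0.00232), and at 5.08 to 5.42 in the other clones.

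Neither FGF receptor passed in KO against WT; in KO1 and KO4 taken alone FGFR1 was called higher and FGFR3 lower. FGFR1, often linked to mesenchymal cells, lies at chr8:38400215-38468834 on the reverse strand and stood at 1.33, 1.19 and 1.23 in WT and 2.94, 1.21, 1.39 and 2.69 in KO1 to KO4. KO1 was 3.22 times higher than WT (adjusted p 0.000151) and KO4 2.71 times (adjusted p 0.000825). KO2 lay within the WT range and KO3 just above it. The neighbours of FGFR1 differed by -0.10 to 0.16 in the clones, and the group difference was 0.80 ± 0.44 (SE, adjusted p 0.412), or 0.51 without KO1.

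FGFR3, a receptor that several epithelia express, lies at chr4:1793293-1808872 and stood at 1.27, 0.91 and 0.66 in WT and -1.88, 3.76, -0.90 and -1.0 in KO1 to KO4. Its reads were the fewest among the receptors in several libraries, at 457 to 661 in WT and 64, 4145, 114 and 170 in KO1 to KO4. FGFR3 was 7.12 times lower than WT in KO1, 3.6 times in KO3 and 3.86 times in KO4, and 7.01 times higher in KO2, with adjusted p of 0.000295, 0.00332, 0.00324 and 0.000976. The group difference of -0.95 ± 1.24 (SE, adjusted p 0.735) was -2.21 with adjusted p 0.0431 without KO2, -0.33 with adjusted p 0.917 without KO1 and -0.62 without KO4. FGFR4, a further FGF receptor picked after its values were seen, stood at 2.26 to 2.49 in WT and -0.94, 4.05, 1.55 and -0.37 in KO1 to KO4.

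Of 28 FGF ligands and co-receptors 5 were tested and 0 passed in KO against WT; the median difference was 0.21. FGF5, a secreted ligand, was at 1.43 to 2.08 in WT and 0.85, -0.46, 2.56 and 0.02 in KO1 to KO4, and passed in each clone. SDC1, a heparan sulfate proteoglycan that serves as co-receptor, was at 3.76 to 3.98 in WT and 1.31, 4.32, 4.01 and 1.33 in KO1 to KO4. Its lower levels were in the clones with the higher FGFR1 (adjusted p 1.59e-05 in KO1 and 9.3e-05 in KO4). The related SDC4 was at 5.97 to 6.22 in WT and 6.73, 6.32, 5.68 and 6.42 in KO1 to KO4.

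ERBB3, MET and FGFR3 were each higher in KO2 and lower in KO1, KO3 and KO4 by the tests of single clones, a pattern picked after the values were seen that 145 of the tested genes had (1.30%). These 3 receptors and ERBB2 also had the same order of clones, KO2 above KO3 above KO4 above KO1, which 8.52% of tested genes had. Of the 7 epithelial markers with a row, 2 had that order, CDH1 and EPCAM, and 5 did not (KRT7, KRT8, KRT18, KRT19 and CLDN4). CDH1, the adhesion protein E-cadherin, picked after its values were seen, was at 0.47 to 0.78 in WT, 1.96 in KO2, -2.20 in KO3, -2.83 in KO4 and -5.86 in KO1. The part of these markers in the result was not tested. FGFR1 had the reverse order, which 6.83% of tested genes had.

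Promoter sequence was looked up for the receptors with calls in opposite directions. Of the 8 receptors, 6 were in the RefSeq promoter table (GRCh38.p14), and for MET and FGFR3, the 2 of those 3 receptors found there, the 250 bases before the start are printed 5′ to 3′ on the forward strand, with matches to GGGCGG or its reverse complement CCGCCC, the GC box, in capitals. MET covers chr7:116671946-116672195 and FGFR3 chr4:1793043-1793292.
MET: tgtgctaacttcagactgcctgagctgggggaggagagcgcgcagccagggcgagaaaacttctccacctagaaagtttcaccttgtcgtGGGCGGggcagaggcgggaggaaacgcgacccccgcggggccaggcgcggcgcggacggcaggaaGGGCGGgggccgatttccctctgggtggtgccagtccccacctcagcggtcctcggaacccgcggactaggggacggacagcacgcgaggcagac
FGFR3: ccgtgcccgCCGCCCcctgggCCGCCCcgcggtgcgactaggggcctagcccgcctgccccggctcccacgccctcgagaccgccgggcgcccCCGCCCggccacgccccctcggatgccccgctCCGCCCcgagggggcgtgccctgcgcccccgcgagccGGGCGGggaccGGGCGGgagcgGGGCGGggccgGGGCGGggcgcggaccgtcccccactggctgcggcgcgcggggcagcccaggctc
The MET window held 2 matches, 160 and 95 bases before the start, with a GC content of 68.4% and 24 CpG pairs. FGFR3 had 8 matches, a GC content of 86.8% and 40 CpG pairs. GGGCGG or CCGCCC was present in 42.6% of all 35116 promoter windows of that length. Neither TATAAA nor its reverse complement TTTATA (10.7% of windows), nor CACCTG or CAGGTG, the E-box bound by zinc-finger repressors (17.5% of windows), was found in the windows of the 6 receptors. A match of letters is a description and does not show that a factor binds.

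EPHA2, a receptor for ephrin-A ligands on neighbouring cells, lies at chr1:16124337-16156087 on the reverse strand and varied least over the clones. It stood at 5.74, 5.51 and 5.53 in WT and at 6.17, 5.46, 5.83 and 5.79 in KO1 to KO4. KO1 was 1.49 times higher than WT (adjusted p 0.0101) and no other clone passed. The group difference was 0.22 ± 0.17 (SE, adjusted p 0.558), 0.10 without KO1 and 0.34 without KO2, and neighbouring genes differed by 0.14 to 0.20 in the clones.

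Ephrin ligands, the membrane-bound partners of EPH receptors, were below WT on average in all 5 genes tested of 8, with a median of -0.73. Of all 11154 tested genes, 5914 were below WT on average, and their median over all tested genes was -0.02. For EFNA4, picked after its values were seen, the difference was only -0.01, and 3 clones lay above every WT sample. The median of -0.73 is the value of EFNA1, picked in the same way, which was at 2.82 to 3.72 in WT. In KO1 to KO4 EFNA1 was at 1.48, 3.36, 1.87 and 3.24, and it was called lower in KO1 and KO3 only. In 3 of the 5 genes every clone lay below every WT sample, beside 10.1% of all tested genes. In KO against WT 0 passed and 3 had an unadjusted p under 0.05, beside 1753 of the 11154 tested genes. EFNB1, which binds EPHB receptors, was at 3.69, 3.62 and 3.59 in WT and 2.05, 3.14, 2.52 and 2.32 in KO1 to KO4. It was lower in each clone taken alone, with a group difference of -1.13 ± 0.24 (SE, adjusted p 0.103). Without KO2 this was -1.34 with adjusted p 0.0181. The neighbours of EFNB1 differed by a median of -0.75, 0.13, -0.79 and -0.01 in KO1 to KO4. Relative to them EFNB1 differed by -0.84, -0.63, -0.33 and -1.31. EFNB2 was at 4.48 to 4.65 in WT and 3.20, 3.82, 3.31 and 4.46 in the clones, and was lower in KO1, KO2 and KO3. EFNA5, a ligand of EPHA receptors, was at 2.10 to 2.15 in WT and 1.84, 1.60, 1.65 and 1.75 in KO1 to KO4, a difference of -0.42 ± 0.12 (SE, adjusted p 0.177).

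For RET, itself not analysed here, 1 of 10 ligands and co-receptors was tested. GDF15, a stress-induced ligand that signals through GFRAL and RET, ranged over 2.85 to 4.92 in WT samples and over 2.60 to 5.29 in clones, and passed in no clone.

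Among the 49 other receptor tyrosine kinases 20 had a row, 14 were tested and 0 passed in KO against WT; the median difference was 0.11. In KO1 to KO4 taken alone, 13, 7, 4 and 4 of the 14 were called, beside 44.1%, 33.5%, 34.1% and 24.8% of all tested genes. The most abundant in WT were AXL, FGFRL1, EPHB4, LMTK2 and RYK. AXL, a receptor for GAS6 often found in mesenchymal-like tumour cells, was at 4.95, 4.82 and 4.57 in WT and at 6.32, 5.09, 5.27 and 5.32 in KO1 to KO4. It lay above every WT sample in all clones and was higher in KO1 (adjusted p 0.000469) and KO4 (adjusted p 0.0473), with a group difference of 0.72 ± 0.29 (SE, adjusted p 0.293), which was 0.44 without KO1. IGF1R, the receptor of insulin-like growth factors, was at 1.13 to 1.39 in WT and 2.32, 1.44, 1.60 and 1.75 in KO1 to KO4, and was higher in KO1 (adjusted p 0.00208). FGFRL1, an FGF receptor without a kinase domain, was at 3.55 to 3.82 in WT and 3.67 to 4.42 in the clones, and EPHB4 at 3.35 to 3.42 and 3.14 to 3.84. LMTK2 was at 3.08 to 3.25 and 2.5 to 3.31, and RYK, a WNT co-receptor, at 3.13 to 3.14 and 2.78 to 3.46.

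Adaptors and enzymes that act next to the receptors showed no shared direction. Of 33 fixed genes 27 were tested and 0 passed in KO against WT; 13 estimates were positive and 14 negative, with a median of -0.01. Of the 27, 14, 11, 10 and 9 were called in KO1 to KO4 taken alone, beside 44.1%, 33.5%, 34.1% and 24.8% of all tested genes. GAB2, a docking protein, was at 1.97, 2.03 and 2.24 in WT and at -0.35, 0.63, 1.80 and 0.53 in KO1 to KO4, and was lower in KO1, KO2 and KO4. STAT5B, a transcription factor activated by cytokine and growth factor receptors, was at 2.43 to 2.49 in WT and 2.63 to 2.93 in the clones, and PIK3R3, a regulatory subunit of PI3K, at 0.00 to 0.16 and 0.43 to 0.74. Neither passed as a group (adjusted p 0.226 and 0.272).

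Genes that damp receptor signalling held the single call of KO against WT among the pathway lists. Of 33 attenuators 28 were tested, and 1 passed, beside 0.242% of all tested genes that were called lower. Taken alone, the clones had 19, 13, 18 and 16 of the 28 called, beside 44.1%, 33.5%, 34.1% and 24.8% of all tested genes in KO1 to KO4. UBASH3B (STS-1), a phosphatase that acts on phosphorylated receptors and their partners, was at 4.39, 4.45 and 4.34 in WT and at 2.66, 2.75, 3.40 and 2.93 in KO1 to KO4. Every clone lay below every WT sample, and the difference was -1.46 ± 0.18 (SE, adjusted p 0.0391). Its neighbours on chromosome 11 differed by a median of -0.63, -0.65, -0.60 and -0.74 in KO1 to KO4, and with them subtracted the difference was -0.80 with adjusted p 0.166. The call was also lost without any WT sample in turn (adjusted p 0.213 to 0.281) and without KO4 (adjusted p 0.078).

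CBL, a ubiquitin ligase that sends active receptors to degradation, lies on chromosome 11 too. It was at 2.37, 2.53 and 2.51 in WT and 2.27, 1.60, 1.76 and 1.91 in KO1 to KO4, a difference of -0.59 ± 0.17 (SE, adjusted p 0.185), which was 0.04 with the neighbours subtracted. SPRED2, an inhibitor of RAS-MAPK signalling, was at 4.08 to 4.26 in WT and 3.63, 3.72, 4.05 and 3.65 in KO1 to KO4 (adjusted p 0.242).

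Of 10 sheddases and their regulators, which release ligands or receptor ectodomains, 10 were tested and 0 passed in KO against WT. ADAM19, a metalloprotease that can process neuregulins, was below 0 in every WT sample and passed the filter on low values only through the clones, so its place in the list and its direction follow from that. It was at -1.21, -1.15 and -1.03 in WT and at 0.61, 0.55, 0.50 and 2.46 in KO1 to KO4, with a group difference of 2.16 ± 0.51 (SE, adjusted p 0.132). The rhomboid-like RHBDF1 was at 2.13 to 2.42 in WT and 1.76 to 2.20 in the clones, and ADAM9 at 5.36 to 5.51 and 4.96 to 5.65.

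**Figure D5:**
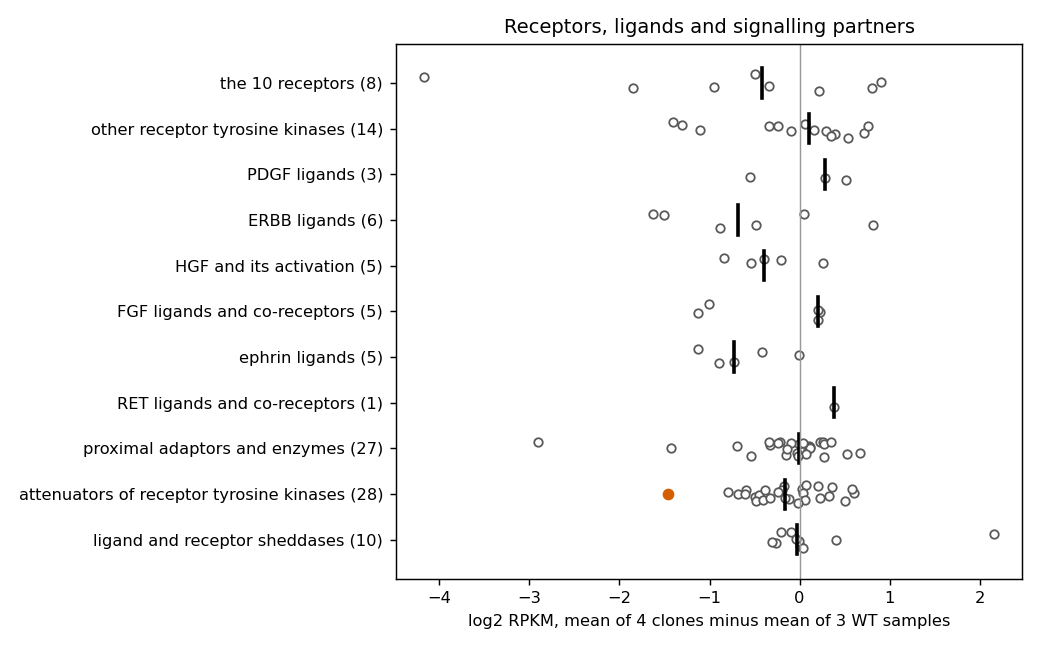
Difference of the mean of 4 clones from the mean of 3 WT samples in log2 RPKM (horizontal axis) for each tested gene of the receptors and of the 10 pathway lists, with the number tested in parentheses; the bar is the list's median and the filled point is UBASH3B, which passed the test. Medians lie between -0.73 and 0.38, and PDGFRA is the point farthest to the left, at -4.17.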

How the data were processed

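RNA of 3 WT samples and 4 ASH1L KO clones was sequenced from TruSeq libraries. The authors deposited log2 RPKM values for 13142 genes in a single table. The authors' build was hg38 and their tools included STAR (2.5.3a), HTSeq (0.11.2), Trim Galore (0.4.1) and edgeR, as the submitters' processing notes list them; strand, annotation and prior count are not given in these sources. Genes without reads sit at a value set by exon length in GENCODE release 29. The amount added to the reads of each library was taken as the value that made most low values whole. It gave effective library sizes and estimated reads (84.4% to 90.7% of low values whole within 0.03 reads). No count test was run.

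Differences were tested on the deposited log2 values, with no pseudocount or rescaling, using limma 3.58.1 in R 4.3.3 (moderated variances with a trend, two-sided, Benjamini-Hochberg over 11154 genes). Each clone was also set against WT, which assumes the spread of the 3 WT samples for a lone clone. The WT samples are labelled biological replicates with no further detail. GENCODE positions matched 95.2% of genes. Scripts were tested on simulated data. The members and lists were chosen with earlier results of these data known.

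Named genes were the receptors, each list's called genes and otherwise its 3 smallest unadjusted p, the 5 other kinases with the highest WT level, the 5 profiles most like PDGFRA, and ASH1L; exceptions are marked. Alternatives covered filters, scale, scaling, variance model, position, a replicate block, weights and each library left out.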

Additional observations from a re-analysis of the deposited data

Results flagged for a closer look

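Samples far from the rest of their group were sought in 39 genes, among the 4 clones of each, by a rule that marks about 1 in 20 groups without any cause. AREG had a log2 RPKM of 3.82 in KO1, against 6.02 to 6.41 in the other clones. ADAM19 had 2.46 in KO4, against 0.50 to 0.61 in the others.

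In 3 receptors KO2 moved against the other clones. ERBB3 was 2.44 log2 units above the WT mean in KO2 and at -4.53, -2.15 and -3.16 in KO1, KO3 and KO4. FGFR3 was 2.81 above WT in KO2 and at -2.83, -1.85 and -1.95 in those clones. For MET the KO2 value was 0.33 above WT, and the other clones were at -1.21, -0.35 and -0.76. The differences between clones themselves were not tested, since each clone has 1 library.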

How the results depend on the processing

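The number of genes called in KO against WT, 46 in the fit as reported, was 75 on the log2(RPKM + 1) scale, 114 after quantile normalization, 1 with the neighbours within 5 Mb subtracted, 0 with a replicate block and 2146 with array weights, which ran from 0.23 for KO3 to 9.9 for WT2. It was 0 to 236 with a library left out: 0 without WT1, WT2 or WT3, 1 without KO4, 51 without KO1, 87 without KO3 and 236 without KO2. Receptors called in KO against WT were 0 in the fit as reported, 5 with array weights (PDGFRA, EGFR, ERBB3, MET and FGFR1), 0 with the replicate block, and 0 to 2 with a library left out, the 2 being ERBB3 and FGFR3 without KO2. Genes called in single clones were 3088 to 5833 in KO1, 1743 to 4867 in KO2, 1706 to 4906 in KO3 and 1153 to 3972 in KO4 with a WT sample left out, the lowest each time without WT2. Under the stricter filter, which ERBB2 and FGFR3 did not pass, receptors called were 5, 3, 4 and 5 in KO1 to KO4. Of all genes, 4244, 3196, 3272 and 2262 were called under it. The number of genes that this filter left is not given here. In the fit as reported, receptors called were 6, 5, 6 and 6, beside 4919, 3736, 3805 and 2769 of all genes. Receptors called in KO2 were 3 to 5 with a WT sample left out. The numbers in the titles do not pair the samples: same-numbered deviations correlated at 0.06, 0.066 and -0.012. UBASH3B under the block differed by -1.45 with adjusted p 0.281.

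With neighbours subtracted, these differences changed sign: EGFR in KO2 -0.022, ERBB2 in KO1 -0.29, and over all clones MET 3.1e-05, ST14 0.071, STAT5B -0.014 and CBL 0.043. With array weights PDGFB was 0.39 and GDF15 -0.19. With a library left out, PDGFB ran from -1.05 to 0.0086, SPINT1 from -1.89 to 0.27 and GDF15 from -0.052 to 0.98; the cause was not tested. Of 882 values of single genes under the alternatives, 830 kept their direction and their side of the threshold. Many of these values are group differences, where only UBASH3B was called in the fit as reported. For the other genes, staying uncalled says little about how firm a result is. The few reads of PDGFRA, ERBB3 and FGFR3 in KO1 limit the precision of those folds.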
